A study of Mus musculus with 5 samples.

Results

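The 8 genes described here belong to neurotrophin and neuregulin signalling and were taken by name from the 22532 genes of the files. They are the neurotrophin ligands Bdnf and Ntf3, the neurotrophin receptors Ntrk2 and Ntrk3, the neuregulin ligands Nrg1, Nrg2 and Nrg3, and the neuregulin receptor Erbb4. Single nuclei of the mouse central amygdala (CeA) came from 5 libraries, and for each of them the CeA of 1 male and 1 female was combined. Fed replicates 1 and 2 and fasted replicates 1 and 2 came from C57BL6 mice (C57BL/6NRj in the study's methods) of 8 weeks. Fed replicate 3 came from Htr2a-Cre mice of 12 weeks, a bacterial artificial chromosome transgenic line in which Cre follows Htr2a, that had received AAV-DIO-mCherry. The mice of fasted replicate 1 had been without food for 20 hours and those of fasted replicate 2 for 21 hours, and the fed groups had normal access to food. Nuclei were isolated on a density gradient with no sort described, so those of fed replicate 3 were not selected for the transgene. Genotype, age, virus and preparation batch of fed replicate 3 cannot be told apart.

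Neurotrophins are secreted growth factors that act through Trk receptor tyrosine kinases. Bdnf binds TrkB, the product of Ntrk2, and Ntf3 binds mainly TrkC, the product of Ntrk3, and both pairs support neuron survival, synapse growth and plasticity. Neuregulins carry an EGF-like domain that binds ErbB receptors, and Erbb4 is the ErbB receptor of many inhibitory neurons, where it takes part in synapse formation and in the migration of interneurons. In glia, Trk and ErbB signals take part in astrocyte maturation and in the growth of the oligodendrocyte lineage.

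Coordinates are those of GRCm39 in the GENCODE M39 annotation. Erbb4 spans chr1:68071345-69147619 on the minus strand (1076 kb), Nrg1 chr8:32303906-33374825 on the minus strand (1071 kb) and Nrg3 chr14:38087063-39196036 on the minus strand (1109 kb). Ntrk3 spans chr7:77825707-78387760 on the minus strand (562 kb) and Ntrk2 chr13:58954176-59281784 on the plus strand (328 kb). Both neurotrophin genes are short, with Bdnf at chr2:109505045-109557475 on the plus strand (52 kb) and Ntf3 at chr6:126078375-126143873 on the minus strand (65 kb). Intronic reads were counted, so long genes collect more reads from nuclei than short ones, and levels are compared between classes within a gene and never between genes. Coordinates of Nrg2 were not looked up, and whether it overlaps Psd2 on the other strand was not checked. The name Nrg1 belongs to 2 identifiers in the files. The second (ENSMUSG00000118541) is a single coding exon of 186 bases inside the first (ENSMUSG00000062991), at chr8:32408601-32408786 on the minus strand. Its sequence is shown because it shares a name with a gene the results turn on, with the start and stop codons in capitals.
Nrg1, second identifier: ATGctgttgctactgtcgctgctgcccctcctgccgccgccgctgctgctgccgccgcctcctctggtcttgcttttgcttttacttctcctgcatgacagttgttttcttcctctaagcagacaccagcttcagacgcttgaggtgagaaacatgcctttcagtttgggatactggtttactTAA
This short exon had 0 UMIs in all 5 libraries, so every Nrg1 value given here is that of the long gene.

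Nuclei with 500 to 8000 genes and mitochondrial UMIs under 0.8% were kept, 7161 in all and 1130 to 1734 per library, with library medians of 6608 to 16367 UMIs. Fasted replicate 1 was the shallowest library and fasted replicate 2 the deepest. Libraries shared 0 to 22 cell barcodes pairwise. The kept nuclei held 289702 UMIs of Nrg1, 284004 of Nrg3, 97600 of Erbb4, 71513 of Ntrk2, 65338 of Ntrk3 and 29470 of Nrg2. Ntf3 had 344 UMIs in 246 nuclei and Bdnf 67 UMIs in 51 nuclei.

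Classes were set by raw UMIs of marker genes, none of them a member. Nuclei with Gad1 or Gad2 were inhibitory and were split into a Prkcd class (without Calcrl, 230 nuclei), a Calcrl class (256), a Dnah5 class (296), an Sst class (205), a Foxp2 class (349), a Rarb class (801) and an Nkx2-1 class (57). A further 2185 inhibitory nuclei met none of these gates and 448 met several. Outside the inhibitory nuclei, the gates found 45 excitatory nuclei with Slc17a7, 397 astrocytes, 162 oligodendrocytes, 79 oligodendrocyte precursors (OPCs), 79 microglia and 13 vascular nuclei, too few to describe further. Levels are given as CPM, the UMIs of a gene per 1000000 UMIs of the class and library. Among genes that gated nothing, Tac2 and Vipr2 had fed means of 96.2 and 265 CPM in the Dnah5 class against 3.47 and 2.53 CPM in the Prkcd class, and Pde1c had 625 CPM in the Rarb class and at most 79.8 CPM in the other gated inhibitory classes. Sox5 was shared by the Prkcd and Calcrl classes (2047 and 1305 CPM) and Cdh9 by the Calcrl, Foxp2 and Rarb classes (283, 191 and 178 CPM), so that the classes are named by their gates. The study placed cells marked by Rarb in the amygdalostriatal area and those marked by Foxp2 among intercalated cells, both outside the CeA. Pde1c marked a further cluster outside the CeA there, and Nkx2-1 marked interneurons of the basolateral amygdala. Values of the Foxp2, Rarb and Nkx2-1 classes are therefore not read as those of CeA neurons. Whether the Rarb class also holds cells of the Pde1c cluster was not tested. Raw UMI gates take deeper nuclei more readily. Median UMIs per nucleus ran from 5930 to 14451 over the libraries in the Foxp2 class, from 7435 to 17393 in the Rarb class, from 2537 to 4462 in astrocytes and from 1525 to 4049 in oligodendrocytes.

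Bdnf was close to the detection limit in every class. Among the 45 excitatory nuclei, 4 (8.89%) held 10 of its 67 UMIs, with levels of 0, 7.61 and 0 CPM (fed replicates 1 to 3) and 0 and 30.5 CPM (fasted replicates 1 and 2). The 3 libraries without a UMI had 5 to 10 excitatory nuclei each. In the Prkcd class 5 of 230 nuclei had a Bdnf UMI (2.17%), and in the Foxp2 class 5 of 349 (1.43%). No UMI was found in the Sst, Nkx2-1, astrocyte, oligodendrocyte, OPC or microglia nuclei. After thinning each nucleus to 4000 UMIs, 0 of 93 fed Sst nuclei had a UMI, for a limit of 3.23% (3 counts of the total), and 0 of 92 fed astrocytes, for a limit of 3.26%. These limits cover counting error only and apply to nuclei with a UMI at this depth, not to nuclei that express Bdnf, and a difference of Bdnf between inhibitory classes was not detectable at this depth.

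Ntf3 UMIs were spread over inhibitory neurons. The Rarb class held 85 of 344 UMIs in 56 of 801 nuclei (6.99%), with levels of 10.2, 5.29 and 9.45 CPM (fed replicates 1 to 3) and 9.48 and 4.6 CPM (fasted replicates 1 and 2). Shares were 6.34% in the Sst class (13 of 205), 5.86% in the Calcrl class (15 of 256), 2.61% in the Prkcd class (6 of 230) and 2.20% among inhibitory nuclei without a gate (48 of 2185). Every library had Ntf3 in the Rarb, Calcrl and Sst classes. Oligodendrocytes, OPCs and microglia had 0 UMIs, and astrocytes had 1 UMI in 397 nuclei (0.252%), but their nuclei were shallower. Neither neurotrophin passed the filter on low counts for the tests between classes.

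Nrg1 was highest in the Rarb class. Its levels there were 7221, 4918 and 5597 CPM (fed replicates 1 to 3) and 6807 and 5002 CPM (fasted replicates 1 and 2), a fed mean of 5912 ± 1184 CPM (SD, n = 3 fed libraries). All 5 values lay above all 5 of the next class, Calcrl, at 3439.9, 4391, 2721, 4832 and 2999.7 CPM in the same order of libraries. Levels ran from 1430.5 to 2093 CPM in the Prkcd class and from 1141 to 2204 CPM in the Dnah5 class, the lowest in the fed mean, with the Prkcd class above it in 3 of 5 libraries. Barcodes with fewer than 500 genes held Nrg1 at 1226, 1902 and 1459 CPM in fed replicates 1 and 2 and fasted replicate 1. In the same order the Dnah5 class had 1720, 1382 and 1141 CPM and the Prkcd class 1635, 1583 and 1430 CPM. Both classes were above these barcodes in fed replicate 1 only. Whether the low counts of both classes reflect expression was not tested. Against the mean of the other 6 inhibitory classes, Nrg1 was higher by 1.36 ± 0.12 (log2 fold change ± SE) in the Rarb class (2.56-fold, adjusted p = 2.89e-11, edgeR quasi-likelihood test with Benjamini-Hochberg adjustment over 9612 genes) and by 0.49 ± 0.12 in the Calcrl class. It was lower in the Dnah5 class (-0.91 ± 0.14) and the Prkcd class (-0.85 ± 0.14). In the Sst, Foxp2 and Nkx2-1 classes the differences of 0.05, -0.33 and 0.19 did not pass the test. One sum stood out within a class, since fasted replicate 1 had 4314 CPM in the Sst class and the other 4 libraries 2331 to 2744. Nuclei of the Rarb class carried medians of 26, 16, 19, 25 and 15 Nrg1 UMIs per 4000 in the order fed replicates 1 to 3 and fasted replicates 1 and 2, against 4.5, 3, 4, 4 and 6 in the Dnah5 class. The difference was therefore present in the median nucleus and not carried by a few.

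Nrg3, a neuregulin whose receptor is Erbb4, was arranged differently over the same classes. The Dnah5 class had 4638, 5317 and 4148 CPM (fed replicates 1 to 3) and 4228 and 4946 CPM (fasted replicates 1 and 2). Sst and Nkx2-1 sums overlapped these values, at 4104 to 4959 and 3730.1 to 5529 CPM. These 3 classes stood above the other 4 in every library, the next being the Foxp2 class at 2742 to 3179.7 CPM. The Rarb and Prkcd classes were lowest, at 1852 to 2394 and 1861 to 2185 CPM, with no overlap between Calcrl (2576 to 3293) and Rarb. Barcodes with fewer than 500 genes held Nrg3 at 1369, 2840 and 1946 CPM in fed replicates 1 and 2 and fasted replicate 1. In the same order the Rarb class had 1852, 2394 and 1967 CPM and the Prkcd class 1908, 1861 and 2045 CPM. Both classes were below these barcodes in fed replicate 2 only. Whether the low counts of both classes reflect expression was not tested. Against the mean of the other inhibitory classes, Nrg3 was higher by 0.65 ± 0.06 in the Dnah5 class, by 0.56 ± 0.08 in the Nkx2-1 class and by 0.53 ± 0.06 in the Sst class. It was lower in the Rarb class (-0.65 ± 0.07) and the Prkcd class (-0.82 ± 0.07; edgeR quasi-likelihood test, adjusted p from 5.91e-12 to 9.78e-07). Nrg1 and Nrg3 thus differed in opposite directions in the Rarb class and in the same direction in the Prkcd class. The median nucleus had 17.5, 20, 14, 16 and 18 Nrg3 UMIs per 4000 in the Dnah5 class and 7, 6, 6, 6 and 7 in the Rarb class.

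Nrg2 varied little between inhibitory classes. Its levels ran from 254 to 493 CPM over the 7 classes and 5 libraries, and all neighbouring classes overlapped. The Prkcd class was highest in the fed mean and above the Calcrl class in 3 of 5 libraries, with 379, 386, 377, 487 and 410.0 CPM in fed replicates 1 to 3 and fasted replicates 1 and 2. Its difference from the mean of the other classes was 0.23 ± 0.08 (adjusted p = 0.0238, edgeR quasi-likelihood test). This call was lost without fed replicate 2 (0.19, adjusted p = 0.146, edgeR) and without fasted replicate 2 (0.18, adjusted p = 0.19). It was also lost without the filter on low counts (adjusted p = 0.08, edgeR), under tighter bounds (adjusted p = 0.0509, edgeR) and in the fed libraries alone (adjusted p = 0.226, edgeR).

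**Figure D1:**
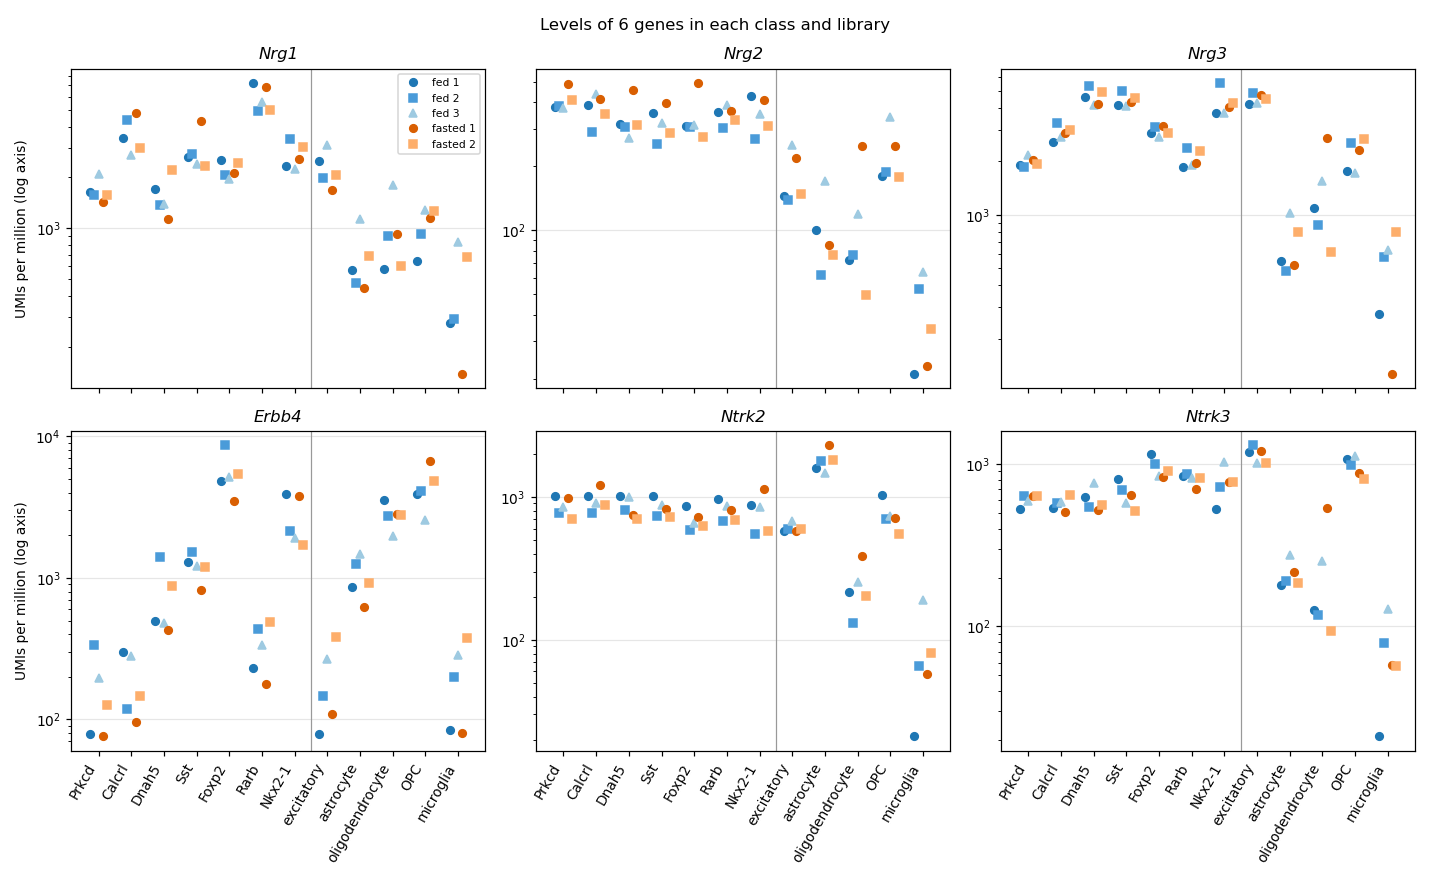
Levels of Nrg1, Nrg2, Nrg3, Erbb4, Ntrk2 and Ntrk3 in CPM on log axes, 1 point per library and class, with the 7 gated inhibitory classes left of the vertical line and the other classes right of it. Nrg1 peaks in the Rarb class, Nrg3 in the Dnah5 class and Erbb4 in the Foxp2 class, while Ntrk2 peaks in astrocytes and is close to level over the inhibitory classes.

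Erbb4 had the widest spread between inhibitory classes of the 6 genes tested. In the Foxp2 class its levels were 4878, 8636 and 5192 CPM (fed replicates 1 to 3) and 3484 and 5458 CPM (fasted replicates 1 and 2). The Prkcd class, at the other end, had 78.7, 338 and 195 CPM (fed replicates 1 to 3) and 76.1 and 125 CPM (fasted replicates 1 and 2). All 5 sums of the Foxp2 class lay above all 5 of the Prkcd class, and within each class fed replicate 2 was highest. Nkx2-1 nuclei came second with 3930.2, 2157, 1915, 3787 and 1697 CPM in the same order of libraries, below the Foxp2 class in 4 of 5 libraries but with overlapping ranges. The Sst class followed at 817 to 1524 CPM, with no overlap with Nkx2-1, and then the Dnah5 class at 428 to 1397 CPM, in which fed replicate 2 was highest. Rarb, Calcrl and Prkcd sums lay lowest, at 178 to 488, 96.4 to 298 and 76.1 to 338 CPM, with overlap between neighbours. The study chose the markers of its clusters, the lateral Sst cluster among them, from earlier reports and from these same libraries.

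Against the mean of the other inhibitory classes, Erbb4 was 11.1-fold higher in the Foxp2 class (3.48 ± 0.14, adjusted p = 3.04e-20, edgeR quasi-likelihood test). It was also higher in the Nkx2-1 class (1.44 ± 0.20) and the Sst class (0.92 ± 0.17). The Sst difference was 1.43 when every gate was 1 UMI stricter, in a fit where the Nkx2-1 class was absent from the mean. Erbb4 was lower in the Prkcd class (-2.52 ± 0.22), the Calcrl class (-2.16 ± 0.22) and the Rarb class (-1.19 ± 0.19). The Dnah5 class did not pass (0.03 ± 0.18), with the Foxp2, Nkx2-1 and Sst classes in the mean it was set against. Nkx2-1 entered with the 3 libraries that had at least 10 nuclei, and could not be fitted under stricter gates or without fed replicate 2, fed replicate 3 or fasted replicate 2.

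Counted per nucleus, Erbb4 divided the classes and also the nuclei within them. After thinning to 4000 UMIs, 74.5% of 196 fed Foxp2 nuclei had 10 or more Erbb4 UMIs, while 11.7% had none. The exact 95% interval of 67.8 to 80.4% pools nuclei over the fed libraries and covers counting error only. The share with 10 or more was 66.7, 86.8 and 66.7% in the fed libraries and 50 and 72.8% in the fasted ones, in order of replicate number. Each fed library lay outside the pooled interval, which does not measure the spread between libraries. Among 25 fed Nkx2-1 nuclei, 14 (56%) had 10 or more and 10 (40%) had none, so that few nuclei lay between. The Sst class was more mixed, with 21.5% at 10 or more and 20.4% at 0. Dnah5 nuclei had 10 or more in 7.79%, Rarb nuclei in 4.61%, Prkcd nuclei in 1.44% and Calcrl nuclei in 1.41%.

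Low Erbb4 counts occurred in every class. Excitatory nuclei and microglia had no nucleus with 10 or more, but 18 of 28 excitatory nuclei and 13 of 18 microglia were without an Erbb4 UMI at this depth, so that the others had some. The shares without an Erbb4 UMI were 66.9% in the Prkcd class, 66.9% in the Calcrl class and 63.2% in the Rarb class, against 64.3% in excitatory nuclei and 72.2% in microglia. Median depths before thinning were 11093 to 32090 UMIs in excitatory nuclei and 2459 to 6073 in microglia. Whether low Erbb4 counts in the Prkcd, Calcrl and Rarb classes reflect expression was not tested, and they are not read as expression here. Barcodes with fewer than 500 genes held Erbb4 at 629.8, 1123 and 649 CPM in fed replicates 1 and 2 and fasted replicate 1, above those 3 classes in the same libraries, and the other 2 libraries had no such barcodes. Ungated inhibitory nuclei also lay below these barcodes, at 611, 689 and 528 CPM in the same order. The Dnah5 class did so in fed replicate 1 (498.5 CPM) and fasted replicate 1 (428 CPM) but not in fed replicate 2 (1397 CPM).

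**Figure D2:**
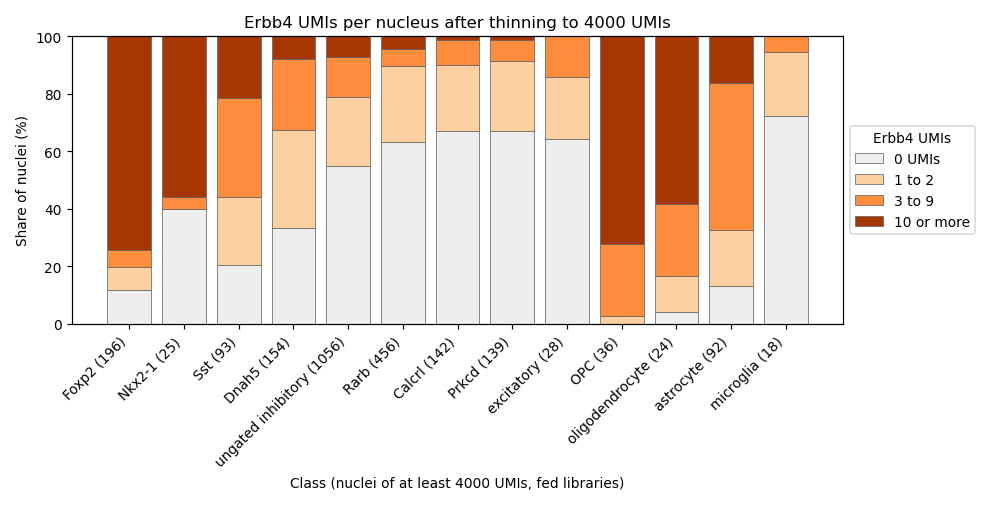
Share of fed nuclei (percent) in 4 ranges of Erbb4 UMIs after thinning to 4000 UMIs, 1 stacked bar per class with the number of nuclei beside its name. The Foxp2 class (74.5%) and OPCs (72.2%) have most nuclei at 10 or more, and the Prkcd, Calcrl and Rarb classes have most nuclei at 0.

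The Trk receptors varied far less than Erbb4 over inhibitory neurons. Ntrk2 levels were 923, 716 and 869 CPM (fed replicates 1 to 3) and 874 and 699.6 CPM (fasted replicates 1 and 2) over all inhibitory nuclei, and every pair of neighbouring classes overlapped. It was lower in the Foxp2 class (-0.26 ± 0.08, adjusted p = 0.0112, edgeR quasi-likelihood test) and higher in the Calcrl class (0.27 ± 0.07, adjusted p = 0.0047). The Calcrl call was lost without fasted replicate 1 (0.19), without fasted replicate 2 (0.21) and in the fed libraries alone (0.08). Fasted replicate 1 had the highest Ntrk2 sum of that class, 1203 CPM against 777 to 1021 in the others.

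Ntrk3 was highest in the Foxp2 class, at 1145, 1003, 840.1, 828 and 903 CPM in fed replicates 1 to 3 and fasted replicates 1 and 2. The Rarb class had 838, 865, 821, 701 and 823 CPM, below the Foxp2 class in 5 of 5 libraries but with overlapping ranges. Against the other classes, Ntrk3 was higher in Foxp2 (0.50 ± 0.08) and Rarb (0.30 ± 0.08) and lower in Calcrl (-0.35 ± 0.09), Prkcd (-0.29 ± 0.09) and Dnah5 (-0.26 ± 0.09). The Prkcd call was lost without fed replicate 1, 2 or 3 (-0.22, -0.25 and -0.23). The Dnah5 call was lost without fed replicate 1 (-0.25), fed replicate 2 (-0.16), fasted replicate 1 (-0.23) or fasted replicate 2 (-0.20). Both calls were also lost under stricter gates (-0.20 and -0.15) and with sums of at least 5 nuclei (-0.26 and -0.24). The Dnah5 call was lost as well under tighter bounds (-0.21), without doublets (-0.22) and in the fed libraries alone (-0.16). The Foxp2 class thus had the highest levels of both Erbb4 and Ntrk3 among the gated inhibitory classes.

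In all, 23 of 42 tests of a member between inhibitory classes passed, against a background of 5.31 to 14.9% of all 9612 genes called higher in a class and 2.87 to 13.5% called lower. The Prkcd class had 1 of 6 members higher and 4 lower (background 14.9 and 13.5%), the Calcrl class 2 and 2 (10.6 and 8.34%) and the Dnah5 class 1 and 2 (11.7 and 8.04%). Sst nuclei had 2 higher and 0 lower (5.31 and 2.87%), Foxp2 nuclei 2 and 1 (11.2 and 9.94%), Rarb nuclei 2 and 2 (11.1 and 6.95%) and Nkx2-1 nuclei 2 and 0 (12.1 and 10.4%). With the library as a block, the p-values measure how far differences between classes varied over these 5 libraries. The 23 include 4 differences under 0.3 on the log2 scale that were lost under at least 1 alternative.

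**Figure D3:**
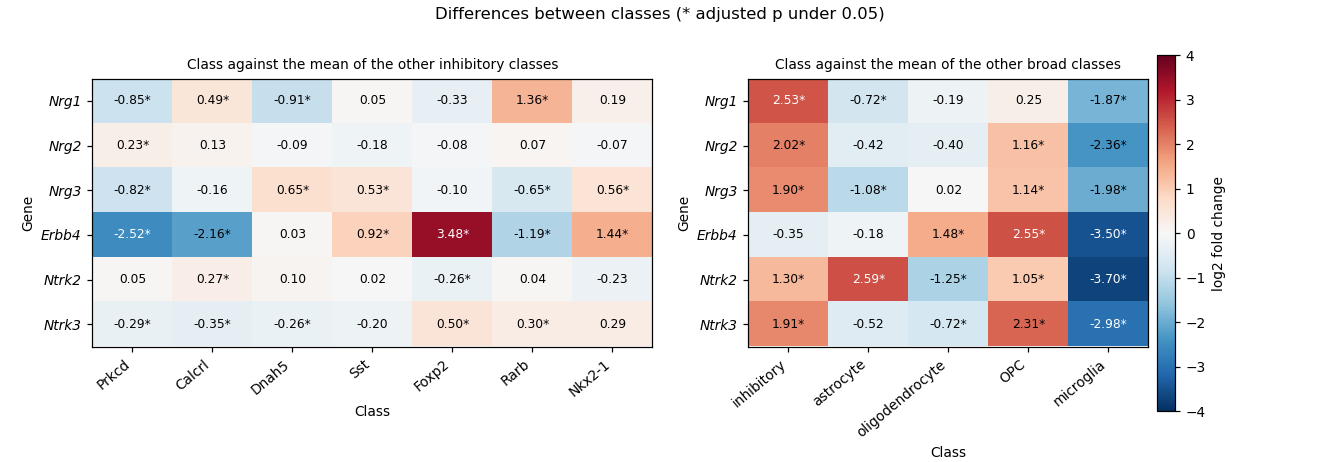
Log2 fold change of each gene in a class against the mean of the other classes, for 7 inhibitory classes (left) and 5 broad classes (right), with an asterisk where the adjusted p was under 0.05. The Erbb4 values span -2.52 in the Prkcd class to 3.48 in the Foxp2 class, while no Ntrk2 value among inhibitory classes exceeds 0.27 in size.

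Of 39 other genes of both pathways, 28 were abundant enough for the tests between inhibitory classes, and 59 of their 196 tests passed. Their counts stand against the same background shares of each class as those of the members, and nothing particular to the list is read from them. In the Prkcd class 4 were higher and 7 lower, among the latter the sortilin-related sorting receptors Sorcs3 (-2.14) and Sorcs1 (-2.09), together with the membrane scaffold Magi2 (-1.31). The Calcrl class had 4 higher and 5 lower, with Sorcs2 at 0.96 and Sorcs3 at -1.10. Rarb nuclei had 9 higher and 3 lower, with Sorcs1 at 1.35 and the EGF receptor ligand Tgfa at 1.94. The Foxp2 class had 6 higher and 3 lower, with Sorcs3 at 1.04 and the Trk adaptor Shc3 at -1.33. Shc3 was higher in the Prkcd (0.96), Calcrl (0.78) and Dnah5 (0.89) classes. Dnah5 nuclei had 5 higher and 3 lower, led by the EGF receptor ligand Egf (2.00). Sst nuclei had 2 higher and 1 lower (Magi2 0.40, Shc3 -0.61), and Nkx2-1 nuclei 4 higher and 3 lower (Magi2 0.80, Dlg4 -0.79). Medians over the 28 genes lay between -0.04 and 0.10, and those over all genes between -0.02 and 0.01.

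Between broad classes, ligands and receptors were distributed over neurons and glia in different ways. Astrocytes had the highest Ntrk2, at 1602, 1782 and 1479 CPM (fed replicates 1 to 3) and 2288 and 1809 CPM (fasted replicates 1 and 2). These values lay above those of all inhibitory nuclei in each library with no overlap. Oligodendrocytes and microglia were lowest, at 130.3 to 386 and 21.1 to 191 CPM. Relative to the mean of the other broad classes, astrocytes were higher by 2.59 ± 0.16 (6.03-fold, adjusted p = 7.41e-15, edgeR quasi-likelihood test over 5485 genes). In the fed libraries alone, where microglia did not enter the mean, this difference was 1.69 and was still called. Deposited counts are per gene, so receptor isoforms with and without the kinase domain were not separated.

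Ntrk3 was low in astrocytes and high in OPCs. OPC sums were 1065, 986 and 1123 CPM (fed replicates 1 to 3) and 879 and 804 CPM (fasted replicates 1 and 2), all above those of inhibitory nuclei (708 to 773). Excitatory nuclei had a similar range, 1012 to 1299 CPM from 5 to 17 nuclei per library, and astrocytes 179 to 276 CPM. The test gave 2.31 ± 0.20 in OPCs and 1.91 ± 0.19 in inhibitory nuclei. In astrocytes the difference did not pass (-0.52 ± 0.23, adjusted p = 0.0695, edgeR quasi-likelihood test). It was called under tighter bounds (-1.24), stricter gates (-0.70) and doublet removal (-0.58). The fed libraries alone (-1.24) and sums of at least 5 nuclei (-0.94) also gave a call. In oligodendrocytes Ntrk3 was lower (-0.72 ± 0.25, adjusted p = 0.0308), where fasted replicate 1 had 534 CPM and the others 94.3 to 252. This value was -1.23 without fasted replicate 1. It missed the threshold without fasted replicate 2 (-0.37), without fed replicate 1 (-0.64), 2 (-0.47) or 3 (-0.71) and without the filter on low counts (-0.68). Under tighter bounds and in the fed libraries alone, where microglia did not enter the mean, it was -1.91 and -1.90, both called.

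Erbb4 was high in the oligodendrocyte lineage. OPCs had 3947, 4149 and 2587 CPM (fed replicates 1 to 3) and 6724 and 4817 CPM (fasted replicates 1 and 2). Oligodendrocytes had 3529, 2718 and 1979 CPM (fed replicates 1 to 3) and 2841 and 2764 CPM (fasted replicates 1 and 2). Neither overlapped the excitatory (78.9 to 382 CPM) or microglial sums (80.6 to 378 CPM), and astrocytes lay between at 626 to 1484 CPM. Per nucleus, 72.2% of 36 fed OPCs and 58.3% of 24 fed oligodendrocytes had 10 or more Erbb4 UMIs per 4000, and 16.3% of 92 fed astrocytes did. The differences from the mean of the other broad classes were 2.55 ± 0.22 in OPCs and 1.48 ± 0.23 in oligodendrocytes. Without microglia in the mean these were 1.40 and 0.64 under tighter bounds and 1.31 and 0.70 in the fed libraries alone, all still called. Over all inhibitory nuclei together, the low and high classes gave 499 to 1344 CPM and no call (-0.35).

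Each neuregulin ligand had its highest fed mean in a neuronal class. Nrg2, however, was higher in OPCs than in excitatory nuclei in 5 of 5 libraries (fed means 236.7 and 178.9 CPM). Inhibitory nuclei had 3095 to 3852 CPM of Nrg1, 304 to 387 of Nrg2 and 2905 to 3565 of Nrg3, with differences of 2.53, 2.02 and 1.90 from the mean of the other classes, all 3 called. Microglia were lowest, at 138 to 827, 21.1 to 63.6 and 127 to 803 CPM. Astrocytes were lower in Nrg1 (-0.72) and Nrg3 (-1.08), and the Nrg1 call was lost without fed replicate 2 (-0.62, adjusted p = 0.102, edgeR). OPCs were higher in Nrg2 (1.16) and Nrg3 (1.14). In the fed libraries alone these were 0.71, no longer called (adjusted p = 0.0509, edgeR), and 0.63, still called. Glial sums of these genes differed between libraries, with Nrg1 in astrocytes at 565, 475, 1130.0, 446 and 687 CPM in fed replicates 1 to 3 and fasted replicates 1 and 2, and in barcodes with fewer than 500 genes at 1226, 1902 and 1459 CPM in fed replicates 1 and 2 and fasted replicate 1. Whether these barcodes hold free RNA was not tested, nor was the part of free RNA in the glial values.

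Inhibitory nuclei had 5 of 6 members higher and 0 lower (background 34.5 and 24.6% of 5485 genes), OPCs 5 and 0 (18.9 and 10.7%), and microglia 0 and 6 (27.3 and 33.3%). Astrocytes had 1 higher and 2 lower (22.6 and 16.9%) and oligodendrocytes 1 and 2 (17.8 and 13.2%), 22 calls of 30 tests. Microglia, with the lowest fed mean of the 5 fitted classes in all 6 genes, were part of the mean that each other class was set against. Where they had too few nuclei to enter (tighter bounds on genes and mitochondrial share, or fed libraries alone), the Ntrk2 difference of inhibitory nuclei fell from 1.30 to 0.34 and 0.44 and that of OPCs from 1.05 to 0.18 and 0.39, and these 4 values were not called. In the same 2 settings the inhibitory nuclei were called lower in Erbb4 (-1.18 and -1.22), as they were with stricter gates (-0.83). With sums of at least 5 nuclei, chosen after seeing the data, excitatory nuclei entered the fit. They were lower in Erbb4 (-2.49 ± 0.31) and higher in Ntrk3 (2.12 ± 0.17), Nrg3 (1.98 ± 0.20), Nrg1, Nrg2 and Ntrk2, all 6 called (background 27.6% higher and 26.6% lower).

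Erbb3 and Egfr had other distributions than Erbb4, and Erbb2 was near the detection limit. Erbb3, a neuregulin receptor with an impaired kinase, had 54.3, 117, 119.9, 79.5 and 194 CPM in oligodendrocytes of fed replicates 1 to 3 and fasted replicates 1 and 2. In OPCs it had 16.4, 60, 11, 47.5 and 17.9 CPM, against at most 0.516 CPM in inhibitory nuclei. The oligodendrocyte values rest on 3 to 39 UMIs and the OPC values on 1 to 7 UMIs per library. Egfr, the EGF receptor, had 336 to 445 CPM in astrocytes and 22.2 to 243 CPM in the Nkx2-1 class, against 0 to 10.8 CPM in the Foxp2 class, where Erbb4 was highest. Erbb2, the partner of both neuregulin receptors in heterodimers, had only 5, 5, 5, 4 and 13 UMIs over all nuclei in the same order of libraries. It had 0 UMIs in the Foxp2, Prkcd, Nkx2-1, excitatory, oligodendrocyte, OPC and microglia sums of all 5 libraries. Its 0 to 14.3 CPM in astrocytes rest on 0 to 7 UMIs per library. These zeros are not read as absence of Erbb2. Lrig1, a negative regulator of ErbB receptors, had 189 to 315 CPM in astrocytes and 13 to 17.4 CPM in inhibitory nuclei. Of the 39 pathway genes, 23 were tested between broad classes and 64 of 115 tests passed, again against the background shares given for the members, with nothing particular to the list read from them. Inhibitory nuclei had 7 higher and 6 lower (the docking adaptor Gab1 at -4.13 and the ErbB2-interacting Erbin at -2.13) and astrocytes 8 and 8 (Sorcs2 3.52). Oligodendrocytes had 9 and 1 (Gab1 2.92, Erbin 2.33), OPCs 7 and 3 (Sorcs3 2.54, Tgfa 2.89) and microglia 5 and 10 (the sheddase Adam10 1.71, Magi2 -3.28).

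Genes with the most similar pattern were looked for among 9334 genes over 13 class means of the fed libraries, as a description without a test, and the class means share libraries and differ in depth. Ntrk2 was closest to Gm42791 (Pearson r = 0.983), Bdh1 (0.964) and Gria2 (0.961), and Ntrk3 to Cers4 (0.958), Vstm5 (0.955) and Cd200 (0.954). For the ligands these were Erc2 (0.932), Ryr2 (0.920) and Nup210 (0.920) beside Nrg1, Zkscan16 (0.977), Osbpl10 (0.969) and Dnm1l (0.966) beside Nrg2, and Cadps (0.960), Col4a1 (0.954) and Hecw1 (0.952) beside Nrg3. Erbb4 had the least similar neighbours, Sema6a (0.860), Itfg1 (0.842) and Magi1 (0.826).

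The comparison of fasted with fed mice asked whether food deprivation changed these genes in any class. In 12 sets of nuclei (the 6 inhibitory classes with at least 10 nuclei in every library, ungated inhibitory nuclei, astrocytes, oligodendrocytes, OPCs, all inhibitory nuclei and all nuclei), 0 of 77 tests of a member passed in edgeR's quasi-likelihood test with Benjamini-Hochberg adjustment, where 0% (Prkcd, Calcrl, oligodendrocytes, all nuclei), 0.00748% (all inhibitory), 0.00822% (ungated inhibitory), 0.0161% (astrocytes), 0.0188% (Rarb), 0.0357% (Dnah5), 0.054% (Foxp2), 0.14% (Sst) and 0.192% (OPCs) of all genes were called. At an unadjusted p under 0.05 there were 6, all of them Erbb4, where 3.58 to 6.19% of all genes in a set had one, and this count was 18 without fasted replicate 2 and 12 with the replicate block. The likelihood ratio test of edgeR and DESeq2 also called 0, with 5 and 4 at an unadjusted p under 0.05. For the pathway list 0 of 284 tests passed and 11 had an unadjusted p under 0.05.

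Neuregulin ligands and Trk receptors showed no called difference between feeding states. Over all inhibitory nuclei the log2 difference, fasted minus fed, was 0.01 for Nrg1 (95% interval -0.29 to 0.31) and 0.01 for Nrg3 (-0.27 to 0.28). Nrg2 had 0.08 (-0.22 to 0.39). The Trk receptors gave -0.10 (interval -0.45 to 0.26) for Ntrk2 and -0.09 (-0.33 to 0.15) for Ntrk3. These intervals bound the differences of the 5 genes in the inhibitory nuclei as a whole, and smaller differences were not detectable with 5 libraries. Oligodendrocytes had larger differences in Ntrk3 (0.94), Nrg2 (0.66) and Ntrk2 (0.63), none with an unadjusted p under 0.05. Ntf3 and Bdnf were tested in 4 and 1 of the 12 sets. Over all nuclei Bdnf had 0.717, 0.75, 0.326, 0.586 and 1.11 CPM in fed replicates 1 to 3 and fasted replicates 1 and 2, with a difference of 0.61 (interval -0.56 to 1.77).

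Erbb4 held all 6 member tests with an unadjusted p under 0.05, in sets that share the same 5 libraries. In the Prkcd class the difference was -1.03 (95% interval -1.92 to -0.15, unadjusted p = 0.0251, adjusted p = 0.749), but the fed and fasted values given above overlapped, since fed replicate 1 lay at 78.7 CPM. Without fed replicate 2, which had 338 CPM, it was -0.46. In the Calcrl class it was -0.89 (95% interval -1.55 to -0.23, unadjusted p = 0.0118, adjusted p = 0.631), from 298, 119, 282, 96.4 and 146 CPM in fed replicates 1 to 3 and fasted replicates 1 and 2. Counts of Erbb4 in these 2 classes were at the level of excitatory nuclei and microglia and below the barcodes with fewer than 500 genes. Whether either difference is one of expression was not tested, and neither is read as such. The Foxp2 class gave -0.53 (95% interval -1.01 to -0.06, unadjusted p = 0.0287, adjusted p = 0.999) and was -0.19 without fed replicate 2 and -0.25 without fasted replicate 1. Sst nuclei gave -0.45 from 1301, 1524, 1223, 817 and 1203 CPM, where both fasted sums lay below all 3 fed ones. Astrocytes gave -0.62 from 858, 1256, 1484, 626 and 927 CPM, with overlap. Astrocytes with 10 or more Erbb4 UMIs per 4000 made up 11.1, 19.5 and 14.3% in the fed and 5.88 and 2.63% in the fasted libraries, from 9 to 76 nuclei each. In OPCs the difference went the other way, 0.70 (95% interval 0.28 to 1.12, unadjusted p = 0.00221, adjusted p = 0.329), and both fasted sums lay above all 3 fed sums, from 11 to 24 nuclei per library. In the Rarb class and the ungated inhibitory nuclei the difference was -0.02 and 0.0038. Without fed replicate 2 the Dnah5 class went from -0.30 to 0.45 and the Rarb class to 0.23.

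**Figure D4:**
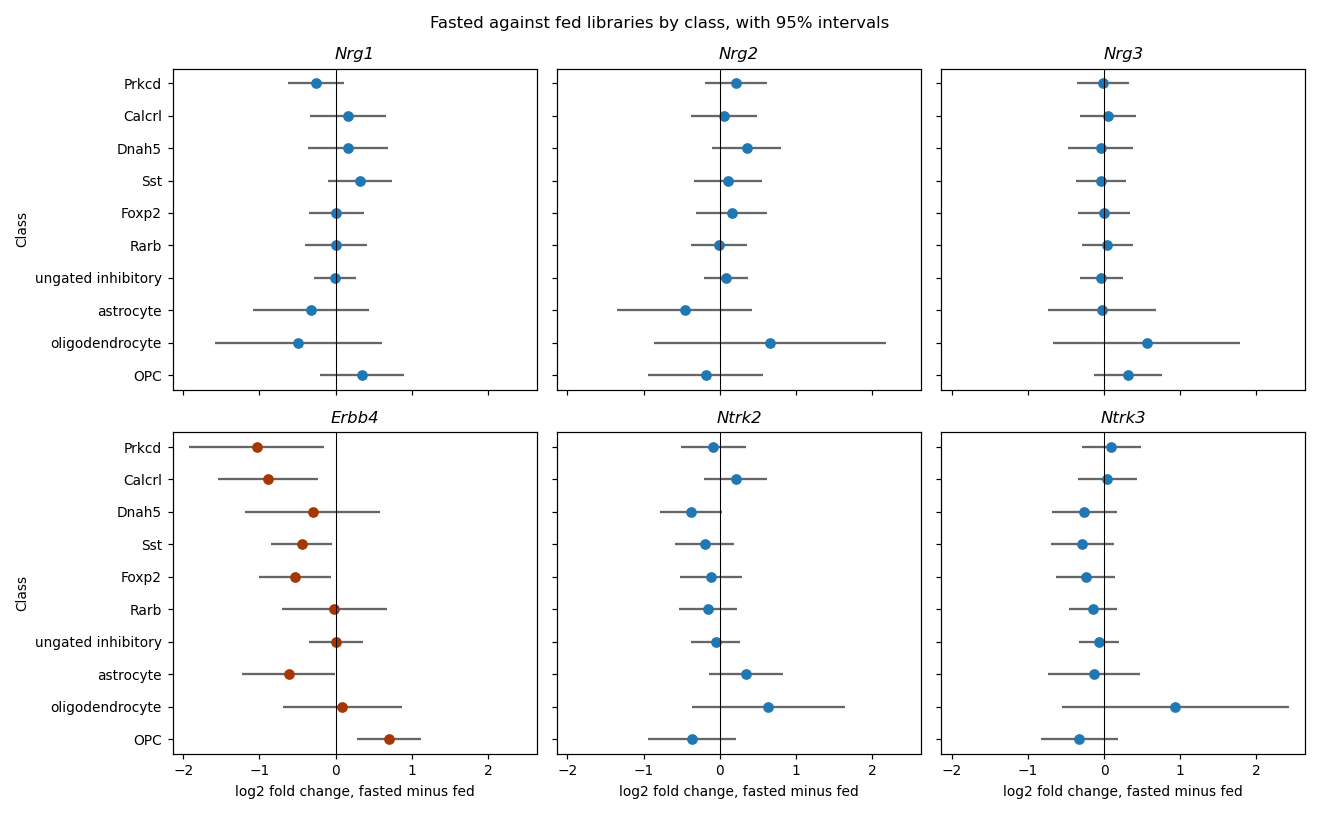
Log2 fold change of fasted against fed libraries for each of 6 genes, with 95% intervals. The sets of nuclei are 6 inhibitory classes, ungated inhibitory nuclei, astrocytes, oligodendrocytes and OPCs. Erbb4 is at -1.03 in the Prkcd class and 0.70 in OPCs, and no point passed the adjusted test.

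Preparation batches paired fed replicate 1 with fasted replicate 1 and fed replicate 2 with fasted replicate 2, while fed replicate 3 stood alone. With the replicate number as a block, 3 of 77 member tests passed, all Erbb4, in the Prkcd class (-1.09, adjusted p = 0.00269, edgeR, 1.08% of all genes called), the Foxp2 class (-0.65, adjusted p = 9.95e-05, 1.11%) and all inhibitory nuclei (-0.38, adjusted p = 0.0243, 3.20%). This fit had 5 libraries and left 1 residual degree of freedom, and fed replicate 3 gave it nothing, so that its spread was estimated almost wholly across genes. Within the 2 pairs the Foxp2 class gave -0.49 and -0.66 and all inhibitory nuclei -0.43 and -0.29. The inhibitory sum mixes classes that differ in Erbb4. The Foxp2 class made up 36 of 748 inhibitory nuclei in fed replicate 1 and 25 of 978 in fasted replicate 1. In fed and fasted replicate 2 it made up 76 of 739 and 125 of 1253. The part of class composition in the inhibitory values was not tested. The pairs differed in the Prkcd class, with -0.05 in the first and -1.43 in the second, and in the Calcrl class, with -1.63 and 0.30. OPCs gave 0.77 and 0.22. The fit without a filter on low counts called Erbb4 in the Prkcd class (-1.06, adjusted p = 0.0116, 0.42% of all genes) and the Calcrl class (-0.90, adjusted p = 0.0312, 0.391%), 2 classes whose low Erbb4 counts were not read as expression above. Without fasted replicate 2, Ntrk3 was called in oligodendrocytes (1.75, adjusted p = 0.017, 2.83%), where fasted replicate 1 is the high sum already given. Median mitochondrial shares were 0.317 and 0.237% in the fasted and 0.0529 to 0.136% in the fed libraries, and their part in these differences was not tested.

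**Figure D5:**
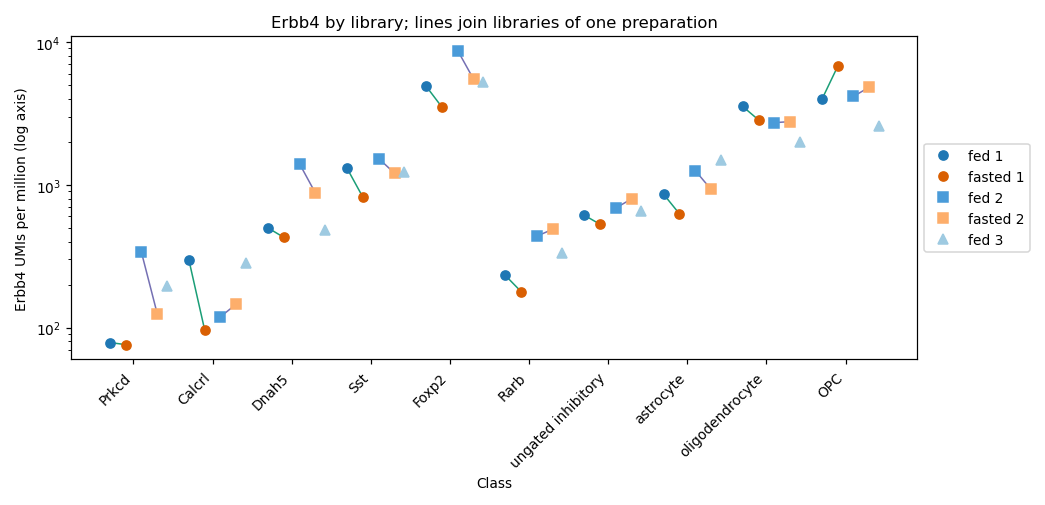
Erbb4 in CPM on a log axis by set of nuclei, 1 point per library, with lines joining the fed and fasted library of the same preparation batch. The lines fall in both batches in the Foxp2, Sst and Dnah5 classes and in astrocytes, and rise in both in OPCs. In the Prkcd class they also fall in both, by little in the first (-0.05 and -1.43). They go in opposite directions in the Calcrl and Rarb classes, ungated inhibitory nuclei and oligodendrocytes.

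Whether the response to fasting differed between classes was tested with an interaction term. Among inhibitory classes 0 of 36 tests of a member passed in edgeR's quasi-likelihood test, with a smallest adjusted p of 0.623. The 2 at an unadjusted p under 0.05 were both Ntrk2, in the Calcrl class (0.39, unadjusted p = 0.0034, edgeR) and the Dnah5 class (-0.30, unadjusted p = 0.0206, edgeR). Among broad classes 0 of 24 passed, with 1 at an unadjusted p under 0.05, Erbb4 in OPCs (unadjusted p = 0.0162). Each test set a class against the mean of the others, and inhibitory and broad classes were fitted apart. The Foxp2 class, the Rarb class and OPCs were therefore not compared with each other. No difference between their Erbb4 values is read. In sums over a class, fewer nuclei with Erbb4 and less Erbb4 per nucleus cannot be told apart. The share of Foxp2 nuclei with 10 or more Erbb4 UMIs was 66.7% fed and 50% fasted in the first batch and 86.8% fed and 72.8% fasted in the second, and fed replicate 3 had no fasted partner.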

How the data were processed

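The authors prepared nuclei of the CeA in 5 libraries with droplet 3' chemistry and deposited raw UMI counts per gene and barcode, which were used as deposited. Their methods give GRCm39 with Ensembl annotation, intronic reads and added Cre and mCherry sequences. The submitters' processing notes list Cell Ranger 2.1.1 and mm10, and the matrix headers give cellranger 5.0.0. No column was left unused for want of a sample.

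Members and gene lists were chosen with earlier results of these data known. The named genes were all members and at most 4 genes of the pathway list per comparison, those with the smallest p among the called. The 3 genes most like each member by Pearson correlation over classes were also named, and levels of the other ErbB receptors were added after their values were seen. Gates needed at least 2 Gad1 or Gad2 UMIs and at least 3 Prkcd, 2 Calcrl, 3 Dnah5, 2 Sst, 5 Foxp2, 5 Rarb or 1 Nkx2-1 UMIs. The Sst class allowed at most 1 Dnah5 UMI and no Nkx2-1, and Foxp2 and Rarb nuclei needed more UMIs of their own marker than of the other. Excitatory nuclei needed 2 Slc17a7 UMIs, and glia 3 to 6 UMIs of their markers. Nuclei that met a glial or excitatory gate together with Gad1 or Gad2, or several such gates (259), and nuclei that met none (1300) were left out of the classes. Scrublet in scanpy 1.11.5 marked 59 of 7161 nuclei (0.824%) as doublets, which were kept.

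UMIs were summed per library and class, with at least 10 nuclei per sum, and tested with edgeR 4.0.16 (R 4.3.3; TMM, filterByExpr, glmQLFit) with Benjamini-Hochberg adjustment over all genes tested and a threshold of 0.05. Class contrasts carried the library as a block. The fit was also run on simulated counts that lacked the batches and class differences of these data, and no result here rests on that run. Fed and fasted libraries were compared without a block. The study's methods name edgeR on summed counts with a likelihood ratio test and describe no block, and the quasi-likelihood test used here differs from theirs. Same-numbered libraries share a preparation batch in the study's description. Their deviations from the feeding-state means correlated at 0.337 and 0.509 over genes in inhibitory nuclei, 0.138 and 0.268 in the Dnah5 class, 0.144 and 0.174 in the Prkcd class and 0.069 and 0.0134 in astrocytes. Deviations of the fasted libraries are exact opposites by construction, so the correlations of a set are not independent. Median UMIs, fed then fasted, were 8326 and 6608 for replicate 1 and 14886 and 16367 for replicate 2. The part of depth in these correlations was not tested. Alternatives were no low-count filter, RLE size factors, bounds of 1000 to 8000 genes with 0.5% mitochondrial UMIs, gates 1 UMI stricter, doublets removed, each library left out, fed libraries only, the likelihood ratio test, DESeq2 1.42.0, the block, and sums of at least 5 nuclei, chosen after seeing the data. Exact (Clopper-Pearson) 95% intervals cover counting error only.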

Additional observations from a re-analysis of the deposited data

How the results depend on the processing

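Between inhibitory classes 23 of 42 member tests passed and 19 passed under every alternative in which they could be fitted (18 to 21 calls when 1 library was left out). Between broad classes 22 of 30 passed and 17 held under every alternative (20 to 23 without 1 library). The pathway list had 59 calls between inhibitory classes and 35 in the fed libraries alone, with 39 to 53 when 1 library was left out and the lowest without fed replicate 2, and 64 calls between broad classes and 40 in the fed libraries alone. Fewer samples entered these fits. Nrg3 in oligodendrocytes turned from 0.02 to -0.97 (adjusted p = 0.00804) under the tighter bounds, where microglia were too few to enter the mean. Of 981 single values under an alternative, 877 stayed the same, 33 lost a call, 25 gained one and 46 changed direction. For a tested difference, the same means that its direction and side of the threshold were kept. The 877 also include mean fed levels, which had no test and stayed within the SD of the fed libraries. The others that changed direction were not called in either fit. Under stricter gates they were Ntrk2 in Prkcd (-0.084), Ntrk2 in Sst (-0.033), Nrg3 in Foxp2 (0.027) and Nrg1 in OPCs (-0.096). With sums of at least 5 nuclei they were Erbb4 in Dnah5 (-0.083), Nrg1 in Nkx2-1 (-0.0095), Erbb4 in astrocytes (0.30), Nrg3 in oligodendrocytes (-0.31) and Nrg1 in OPCs (-0.091). In the fed libraries alone they were Nrg1 in Sst (-0.014), Nrg3 in Foxp2 (0.0043), Nrg3 in oligodendrocytes (-0.60) and Nrg1 in OPCs (-0.50). Under tighter bounds they were Ntrk2 in Sst (-0.044), Nrg3 in Foxp2 (0.049), Nrg1 in OPCs (-0.27), Erbb4 fasted against fed in Rarb (0.23) and Erbb4 fasted against fed in ungated inhibitory nuclei (-0.16). Without doublets they were Ntrk2 in Sst (-0.013) and Ntrk2 in Rarb (-0.0039). With the replicate block they were Erbb4 fasted against fed in ungated inhibitory nuclei (-0.016) and Erbb4 fasted against fed in oligodendrocytes (-0.094). When 1 library was left out, those that changed direction ran over Ntrk2 in Prkcd (-0.0014 to 0.052), Nrg1 in Sst (-0.12 to 0.18), Ntrk2 in Sst (-0.028 to 0.044), Nrg3 in Foxp2 (-0.12 to 0.028), Ntrk2 in Rarb (-0.026 to 0.057), Erbb4 in astrocytes (-0.45 to 0.035), Nrg1 in oligodendrocytes (-0.31 to 0.20), Nrg3 in oligodendrocytes (-0.43 to 0.49), Erbb4 fasted against fed in Dnah5 (-0.91 to 0.45), Erbb4 fasted against fed in Rarb (-0.88 to 0.49), Erbb4 fasted against fed in ungated inhibitory nuclei (-0.29 to 0.24), Erbb4 fasted against fed in oligodendrocytes (-0.13 to 0.28), Erbb4 fasted against fed in all inhibitory nuclei (-0.93 to 0.12) and Erbb4 fasted against fed in all nuclei (-0.74 to 0.13). Between fed and fasted libraries the 0 member calls became 2 without the filter on low counts, 3 with the replicate block, and 0 to 1 when 1 library was left out. The block also gave 2 calls in the pathway list (Sorcs1 in the Foxp2 class, 0.70, and Shc3 in all inhibitory nuclei, -0.28), and it changed no other call of these genes. The cause of these changes was not tested. The class with the highest level was followed over the gated inhibitory classes without Nkx2-1, astrocytes, oligodendrocytes and OPCs. Among these it stayed the same for 6 of 6 genes under other bounds, gates and doublet removal. The class with the highest share stayed the same for 5 of 6 after thinning to 2000 UMIs. Excitatory nuclei were not among them, though their fed mean of Ntrk3 was higher than that of OPCs (1165 against 1058 CPM). Microglia left the fit under tighter bounds and in the fed libraries alone, and Nkx2-1 under tighter bounds, stricter gates, doublet removal, fed libraries alone and without fed replicate 2, fed replicate 3 or fasted replicate 2. Depth limits Bdnf and Ntf3 in every class and all genes in oligodendrocytes, OPCs and microglia.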

Other observations

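Nuclei with much Erbb4 were not confined to the gated classes. Of 6282 nuclei thinned to 4000 UMIs, 838 had 10 or more Erbb4 UMIs, and 247 of them (29.5%) belonged to the Foxp2 class. A further 149 (17.8%) were inhibitory nuclei without a gate, 108 (12.9%) nuclei that met no gate and 51 (6.09%) OPCs.

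Within the Foxp2 class, nuclei with 10 or more Erbb4 UMIs also had more of the gate's own marker than nuclei with 2 or fewer. Median Foxp2 UMIs per 4000 were 7, 7 and 6 against 3, 1 and 4 in fed replicates 1, 2 and 3, and 6 and 6 against 4 and 3 in fasted replicates 1 and 2. Median Nrg1 was 6, 6 and 6 against 3, 4 and 4 in the fed and 9 and 8 against 7 and 3.5 in the fasted libraries, while median Nrg3 was 11.5, 9 and 8 against 11, 11 and 7 in the fed and 7.5 and 10 against 11 and 11 in the fasted libraries. The groups with few Erbb4 UMIs held 7 to 28 nuclei per library. These values were chosen after seeing the data and are a description, with no test.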
